A study of Mus musculus with 9 samples.

Results

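The proteasome genes described here are the genes that the array names Psma, Psmb, Psmc, Psmd, Psme, Psmf or Psmg followed by a number, without the immunoproteasome subunits Psmb8, Psmb9 and Psmb10. They were chosen by name and not by any measured value. The rule found 46 of the 27398 gene names on the array, with 75 of its 41174 probes. Of these, 69 probes of 44 genes were bright enough to test.

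The proteasome is the large protease that degrades proteins tagged with ubiquitin. Its 20S core is a barrel of alpha rings (Psma genes) around beta rings (Psmb genes), and Psmb5, Psmb6 and Psmb7 carry the proteolytic sites. The 19S cap recognises and unfolds the substrate with a ring of ATPases (Psmc genes) and a set of other subunits (Psmd genes). Assembly chaperones (Psmg1 to Psmg4, and for the cap base Psmd5, Psmd9 and Psmd10) build the particle without staying in it, activators (Psme genes) can bind the core in place of the cap, and Psmf1 is an inhibitor. In mammalian cells the transcription factor Nfe2l1 is known to raise subunit genes together when proteasome activity falls short.

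Gene expression was read on 9 Agilent mouse arrays of 1 colour (Cy3), 3 per group, from pro-B cells transformed with Abelson murine leukaemia virus (A-MuLV). All cells came from the C57Bl/6 background and were Ebf1fl/fl RERTCre, so that 4-hydroxytamoxifen (4-OHT) deletes endogenous Ebf1, whose protein drives commitment to the B lineage. EBF1ΔC cells received a retrovirus (pmys with IRES-GFP) for EBF1 without its C-terminal domain, and EBF1wt cells the same vector with full-length EBF1. Both received 2 µM 4-OHT 24 h after the virus, GFP-positive cells were sorted 5 days on, and RNA was taken once more than 2 weeks had passed. Mock cells were given 2 µM 4-OHT and harvested after 4 days, before cell death. All 3 groups had thus been treated with 4-OHT, and Mock cells differed from the EBF1 groups in transduction, sorting and time in culture as well as in EBF1. Whether the 3 arrays of a group came from separate cultures is not stated, so the p-values may measure technical spread only.

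Levels are log2 signals minus the log2 of their own array's 75th percentile, so a level of 0 is that percentile and 1 unit is a 2-fold difference on that probe. They cannot be compared between probes. The 3 comparisons come from 1 limma fit to all 9 arrays, and a probe was called at an adjusted p under 0.05 (Benjamini-Hochberg over the 22355 probes tested). EBF1ΔC and EBF1wt are each compared with the same 3 Mock arrays, so those 2 comparisons are not independent of each other. Mock arrays lay on slides 1 and 2 and were scanned on another day than the arrays of the EBF1 groups, on slides 3 to 6. For the comparisons with Mock, slide and scan day therefore cannot be told apart from the group, whereas slides 4 and 5 each held 1 array of both EBF1 groups. Of the 75 probes, 68 were well above background on all 9 arrays and 0 were saturated. The 8 B-lineage markers examined were well above background on all 9 arrays. Signals were summed over the markers of a list, so the brightest markers dominate the sum. The log2 of that sum was 9.40 to 9.52 in EBF1ΔC, 9.50 to 9.59 in EBF1wt and 7.31 to 7.34 in Mock cells. Of 4 T cell markers only Cd3e, and of 4 myeloid markers only Lyz2, were above background on all 9 arrays, and no erythroid or stromal marker was. The erythroid marker Hba-a1 and the stromal marker Col1a2 were well above background on all 3 Mock arrays. The T cell marker Cd3g and the myeloid markers Itgam and Csf1r were so on 2 Mock arrays each and on 0 arrays of the EBF1 groups. Among the myeloid markers only Lyz2 had higher mean levels in the EBF1 groups than in Mock cells. Its means were 3.59 in EBF1ΔC, 0.483 in EBF1wt and -1.578 in Mock cells. The log2 summed signal of myeloid markers was 2.98 to 3.95 in EBF1ΔC, -1.08 to 1.42 in EBF1wt and -1.42 to -1.004 in Mock cells. That of the T cell markers was -3.71 to -3.62 in EBF1ΔC, -3.84 to -3.36 in EBF1wt and -3.14 to -2.98 in Mock cells. That of the 3 erythroid markers was -4.37 to -3.99 in EBF1ΔC, -4.23 to -3.655 in EBF1wt and -3.14 to -2.86 in Mock cells, and that of the 3 stromal markers -4.87 to -4.26 in EBF1ΔC, -4.71 to -4.49 in EBF1wt and -4.28 to -3.64 in Mock cells. Their part in the results was not tested.

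What each probe can hybridise to decides how its value reads, so the probe sequences that the results turn on are given first, 5′ to 3′, as deposited with the arrays (mm9 positions). Of the 75 probes, 64 were designed on a RefSeq mRNA, 7 on an Ensembl transcript and 4 on a cDNA clone. The first 5 below are mRNA probes of the genes with the highest changes or the exceptions, and the last is a second probe of Psma3 that was designed on an Ensembl transcript.
Psmc3, chr2:90896846-90896905, plus strand: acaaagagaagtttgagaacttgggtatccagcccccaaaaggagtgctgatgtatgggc
Psma6, chr12:56511127-56511186, plus strand: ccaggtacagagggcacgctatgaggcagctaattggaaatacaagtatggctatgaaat
Psmd10, chrX:137483747-137483806, minus strand: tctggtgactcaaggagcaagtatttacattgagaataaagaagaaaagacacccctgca
Psmd8, chr7:29961170-29962121, minus strand: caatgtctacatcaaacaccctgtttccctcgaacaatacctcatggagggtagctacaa
Psma3 mRNA probe, chr12:72079794-72084356, plus strand: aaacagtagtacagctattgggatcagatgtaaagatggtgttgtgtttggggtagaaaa
Psma3 Ensembl probe, chr12:72079870-72079929, plus strand: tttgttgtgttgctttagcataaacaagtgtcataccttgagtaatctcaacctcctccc

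The Psma3 mRNA probe is 60 bases long but spans a much longer genomic interval, so it crosses a splice junction, as 26 of the 75 probes do. The Psma3 Ensembl probe lies inside the interval that the mRNA probe skips, that is, in sequence that is spliced out at that junction. No exon annotation of mm9 was used here for the other probes.

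Proteasome genes were higher in both EBF1 groups than in Mock cells, by a modest amount, and differed little between the EBF1 groups. Between EBF1wt and Mock, 57 of the 69 probes were called higher, where 35.3% of all probes tested were, and 6 lower, where 31.6% were. Between EBF1ΔC and Mock, 52 were called higher, where 34.1% of all probes tested were, and 5 lower, where 30.6% were. The median log2 change over the 69 probes was 0.46 in EBF1wt and 0.47 in EBF1ΔC cells, a 1.38-fold and a 1.39-fold difference, against 0.04 over all probes tested in each comparison. Changes of 2-fold or more were rare. For EBF1wt, 2 probes were called higher at that size (6.08% of all probes) and 1 lower (17.4% of all probes), and for EBF1ΔC 2 higher (6.12% of all) and 1 lower (16.2% of all). The lower one in both was a clone probe of Psme4 that was bright enough to test only in Mock, the group where it is high.

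Taking 1 probe per gene, the one with the highest mean level, 41 of 44 genes were called higher in EBF1wt and 36 of 44 in EBF1ΔC cells, and 0 lower in either, also at an unadjusted p under 0.05. Of all probes tested, 35.3% and 34.1% were called higher, and 33.2% and 32.3% were lower at an unadjusted p under 0.05. Probes with a mean above the 75th percentile were called higher more often (50.1% and 47.6%), and the part of choosing the brightest probe was not tested. Among the 31 subunits of the core and cap proper, 29 were called higher in EBF1wt and 28 in EBF1ΔC cells, beside the same shares of all probes. The plot of all 44 genes by array shows this as a shift of almost every row to the right of the Mock arrays.

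**Figure D1:**
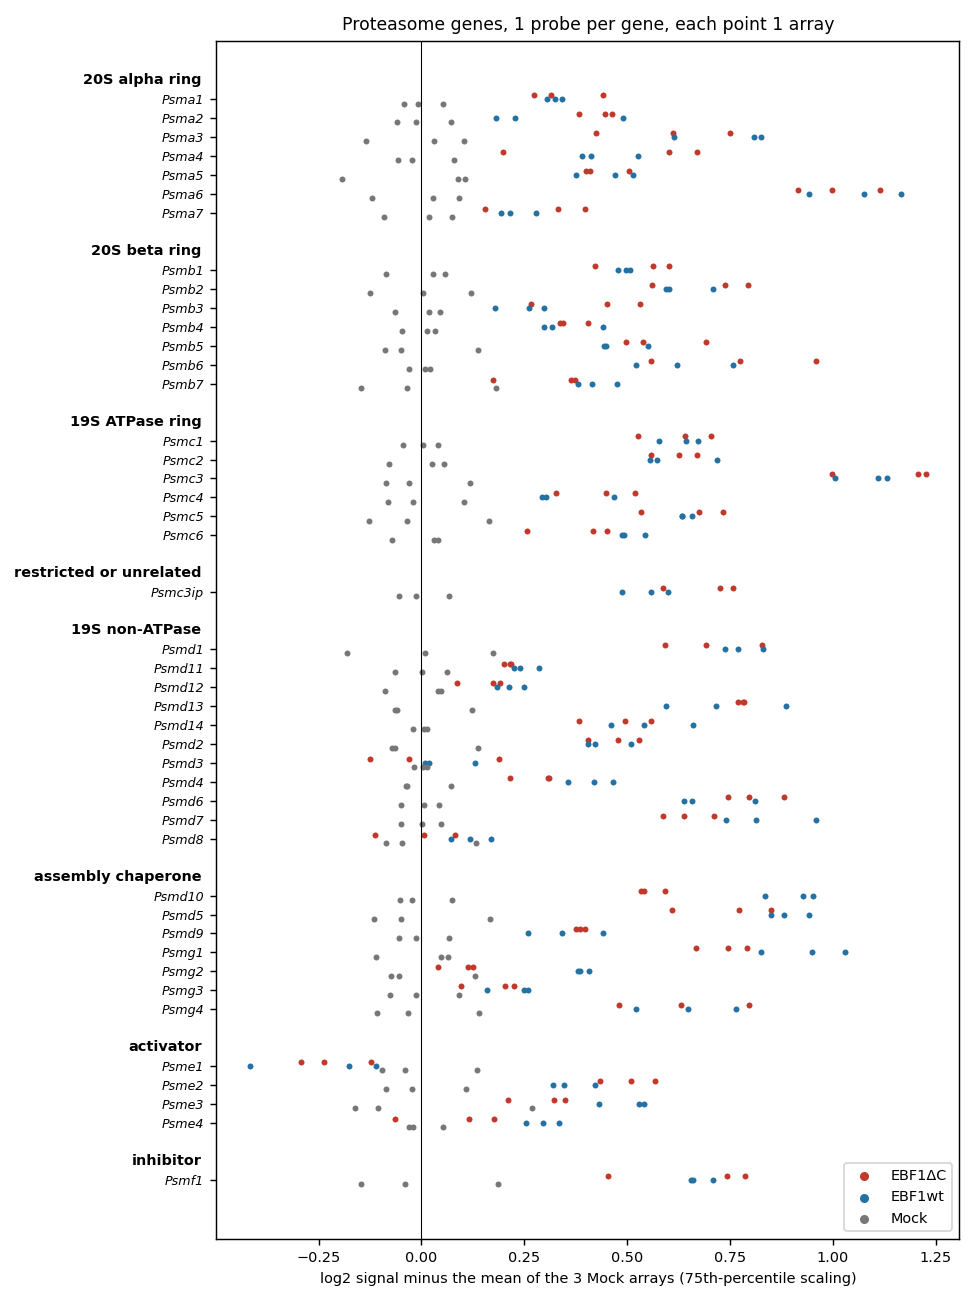
Log2 signal of 44 proteasome genes (1 probe per gene, grouped by role on the vertical axis) relative to the mean of the 3 Mock arrays; each point is 1 array of EBF1ΔC, EBF1wt or Mock cells. Most genes of every role sit to the right of 0 in both EBF1 groups, while Psmd3, Psmd8 and Psme1 do not.

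How far these numbers can be read depends on the scaling between arrays, since so many probes of the array differed from Mock in each direction. Bright probes rose more often than dim ones. Among the 10098 tested probes with a mean above the 75th percentile, 50.1% were called higher in EBF1wt and 47.6% in EBF1ΔC cells, with median log2 changes of 0.26 and 0.23. Of the 59 proteasome probes in that range, 56 were called higher in EBF1wt and 51 in EBF1ΔC cells, with medians of 0.51 and 0.50. Scaling to the median of each array moved the median of all probes to 0.75 for EBF1wt and 0.59 for EBF1ΔC, and the proteasome medians to 1.17 and 1.01. Quantile normalization gave proteasome medians of 0.28 for EBF1wt and 0.30 for EBF1ΔC, against 0.09 and 0.08 over all probes.

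The excess over the median of all probes was positive under each of the 5 scalings tried, which are not 5 independent checks. Scaling to the 75th percentile or to the median shifts all probes of an array alike, so these give the same excess by construction. The authors' values correlated at 0.9955 to 0.9967 per array with quantile-normalized signals to which an offset of 50 had been added. For EBF1wt it was 0.42 with the 75th percentile and the median, 0.19 with quantile normalization, 0.23 with normexp background correction followed by quantile normalization, and 0.25 in the authors' own values. For EBF1ΔC it was 0.43, 0.43, 0.22, 0.26 and 0.28 in the same order. Called higher under all 5 scalings were 38 of the 69 probes for EBF1wt (27.5% of all probes tested) and 34 for EBF1ΔC (26.2% of all). Called lower under all 5 were 0 probes for EBF1wt (11.4% of all) and 1 for EBF1ΔC (12.6% of all), a probe of Psme4 described further on. That probe was bright enough to test only in Mock cells, so its lower call is no independent support. The sign changed with the scaling for 17 probes in EBF1wt and 15 in EBF1ΔC cells, so the direction of those probes is not settled.

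**Figure D2:**
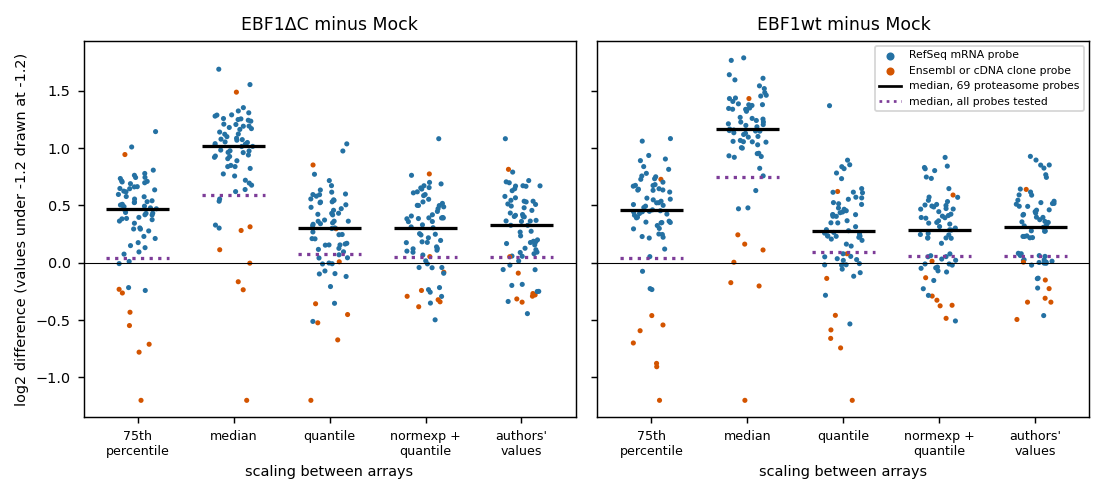
Log2 difference from Mock of the 69 tested proteasome probes in EBF1ΔC (left) and EBF1wt cells (right) under 5 scalings between arrays; each point is 1 probe, the solid line is the median of these probes and the dotted line the median of all probes tested. The solid line lies above the dotted line under every scaling, but its height ranges between 0.28 and 1.17 for EBF1wt.

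In the alpha ring of the core, which forms the gate of the barrel, all 7 genes measured were called higher in both EBF1 groups. Of all probes tested, 34.1% were called higher in EBF1ΔC and 35.3% in EBF1wt cells. Psma6 had the highest change of the ring. Its levels were 5.46, 5.34 and 5.26 in EBF1ΔC, 5.42, 5.29 and 5.51 in EBF1wt and 4.44, 4.38 and 4.23 in Mock cells. All 6 arrays of the EBF1 groups lay above all Mock arrays. The log2 change was 1.01 ± 0.10 in EBF1ΔC (SE, adjusted p = 5.27e-05, limma) and 1.06 ± 0.10 in EBF1wt cells (adjusted p = 3.91e-05, limma), and it stayed called under all 5 scalings. Psma7 was at the other end of the ring, with changes of 0.29 in EBF1ΔC and 0.23 in EBF1wt cells. With quantile normalization the change of Psma7 was 0.04 in EBF1ΔC and -0.01 in EBF1wt cells, neither of them called. Psma1 rose by 0.34 in EBF1ΔC and 0.32 in EBF1wt cells on the main scale, and stood at -0.021 in EBF1ΔC and -0.004 in EBF1wt cells in the authors' values. Of the 7 alpha genes, Psma3 and Psma6 were called under every scaling in both groups.

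In the beta ring all 7 genes were called higher in both EBF1 groups, beside 34.1% (EBF1ΔC) and 35.3% (EBF1wt) of all probes. The changes were 0.30 to 0.76 in EBF1ΔC and 0.25 to 0.63 in EBF1wt cells. The catalytic subunit Psmb6 (caspase-like site) had levels of 5.48, 5.30 and 5.08 in EBF1ΔC, 5.14, 5.04 and 5.28 in EBF1wt and 4.53, 4.49 and 4.54 in Mock cells. Every array of the EBF1 groups was above every Mock array. Its log2 change was 0.76 ± 0.11 in EBF1ΔC (SE, adjusted p = 0.000498, limma) and 0.63 ± 0.11 in EBF1wt cells (adjusted p = 0.0013, limma). Psmb5 (chymotrypsin-like site) had levels of 4.63, 4.82 and 4.67 in EBF1ΔC, 4.68, 4.57 and 4.58 in EBF1wt and 4.27, 4.04 and 4.08 in Mock cells. These groups did not overlap with Mock either, and the change was 0.58 ± 0.09 in EBF1ΔC and 0.48 ± 0.09 in EBF1wt cells (SE). Psmb7 (trypsin-like site) stood at 4.06, 4.05 and 3.86 in EBF1ΔC, 4.17, 4.10 and 4.07 in EBF1wt and 3.87, 3.54 and 3.65 in Mock cells. Its EBF1ΔC arrays overlapped the highest Mock array, and the change of 0.30 ± 0.10 in EBF1ΔC cells (SE, adjusted p = 0.0306, limma) was not called under 2 of the 5 scalings nor without any one of 4 arrays. Psmb5 and Psmb6 were called under all 5 in both groups. Psmb3, a structural subunit, rose by 0.42 in EBF1ΔC and 0.25 in EBF1wt cells, and the change in EBF1wt cells was -0.09 with quantile normalization.

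The ATPase ring of the cap, which unfolds the substrate and threads it into the core, had the highest median of the subunit groups. All 6 genes were called higher in both EBF1 groups, beside 34.1% (EBF1ΔC) and 35.3% (EBF1wt) of all probes. The median was 0.62 in EBF1ΔC and in EBF1wt cells. Psmc3 had the highest change of all 44 genes. Its levels were 3.78, 3.76 and 3.55 in EBF1ΔC, 3.69, 3.56 and 3.67 in EBF1wt and 2.67, 2.52 and 2.47 in Mock cells. The EBF1 groups lay close together and about 1 unit above Mock. The change was 1.14 ± 0.10 in EBF1ΔC (SE, 2.21-fold, adjusted p = 2.47e-05, limma) and 1.08 ± 0.10 in EBF1wt cells (2.12-fold, adjusted p = 3.11e-05, limma). It ranged between 0.97 and 1.69 in EBF1ΔC and between 0.89 and 1.79 in EBF1wt cells over the 5 scalings. Psmc3ip, which encodes a partner protein of Psmc3 known from meiotic recombination and is no proteasome subunit, rose by 0.69 in EBF1ΔC and 0.55 in EBF1wt cells, so a similar rise was also found for a gene that shares only the name.

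Among the 11 other cap subunits, 8 genes were called higher in EBF1ΔC and 9 in EBF1wt cells, beside 34.1% and 35.3% of all probes. Psmd6 and Psmd13, which are structural subunits of the lid, were among the highest in EBF1ΔC cells. Psmd6 had 4.01, 4.15 and 4.06 in EBF1ΔC, 4.08, 3.91 and 3.92 in EBF1wt and 3.31, 3.27 and 3.22 in Mock cells. Psmd13 had 2.04, 2.03 and 2.05 in EBF1ΔC, 1.98, 1.86 and 2.15 in EBF1wt and 1.38, 1.20 and 1.20 in Mock cells. Both genes were without overlap with Mock, with changes of 0.81 and 0.78 in EBF1ΔC and 0.70 and 0.73 in EBF1wt cells.

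Psmd3 and Psmd8, also lid subunits, were called in neither comparison. Psmd3 stood at 6.20, 6.51 and 6.29 in EBF1ΔC, 6.34, 6.45 and 6.33 in EBF1wt and 6.33, 6.34 and 6.30 in Mock cells. Psmd8 stood at 4.28, 4.36 and 4.16 in EBF1ΔC, 4.34, 4.39 and 4.44 in EBF1wt and 4.41, 4.23 and 4.19 in Mock cells. The groups of both genes overlapped, with fitted changes between -0.01 and 0.12. Under other scalings both genes were called higher once (median scaling) and Psmd3 was called lower under 2 of 5 scalings in EBF1wt and both genes under 3 of 5 in EBF1ΔC cells, so the data do not show that their levels were equal. Psmd4 (a ubiquitin receptor), Psmd11 and Psmd12 were at the low end of the called genes. Psmd4 rose by 0.28 in EBF1ΔC and 0.41 in EBF1wt cells, Psmd11 by 0.21 and 0.25. The brightest Psmd12 probe had 0.15 in EBF1ΔC cells, which was not called (adjusted p = 0.113, limma), and 0.22 in EBF1wt cells, which was. In EBF1ΔC cells it was called lower under 2 of the 5 scalings, at -0.235 with normexp and -0.251 in the authors' values. The other 2 Psmd12 mRNA probes were called higher in both groups, with changes between 0.40 and 0.52.

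The assembly chaperones were called higher for 5 of 7 genes in EBF1ΔC and 7 of 7 in EBF1wt cells, beside 34.1% and 35.3% of all probes. Psmg1, which pairs with Psmg2 to assemble the alpha ring, had 2.31, 2.27 and 2.19 in EBF1ΔC, 2.35, 2.55 and 2.47 in EBF1wt and 1.58, 1.57 and 1.41 in Mock cells. Every array of the EBF1 groups was above every Mock array, and the change was 0.73 ± 0.09 in EBF1ΔC and 0.94 ± 0.09 in EBF1wt cells (SE). Psmg2 behaved otherwise. Its brightest probe had 3.23, 3.24 and 3.16 in EBF1ΔC, 3.496, 3.521 and 3.5 in EBF1wt and 3.25, 3.04 and 3.06 in Mock cells. EBF1ΔC overlapped Mock on this probe, with a change of 0.09 (adjusted p = 0.333, limma), and EBF1wt was above it by 0.39. A second Psmg2 probe gave 0.23 in EBF1ΔC and 0.52 in EBF1wt cells, both called. The change in EBF1wt cells was called under all 5 scalings and that in EBF1ΔC cells under 2, with 0.15 under quantile normalization and 0.067 under normexp. For the first probe the change in EBF1ΔC cells was -0.26 with normexp and -0.25 in the authors' values, both called lower. Psmg3 had changes of 0.18 in EBF1ΔC (adjusted p = 0.086, limma) and 0.22 in EBF1wt cells, and Psmg4 rose by 0.64 in EBF1ΔC and 0.65 in EBF1wt cells.

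Of the 4 activator genes, 1 was called higher in EBF1ΔC cells, where 34.1% of all probes tested were. In EBF1wt cells 3 of 4 were, where 35.3% of all probes tested were. Psme1 and Psme2 encode the alternating subunits of the PA28 ring, which is known to be induced by interferon together with the immunoproteasome. Psme1 was the one gene with a lower fitted level in both groups. It had 5.64, 5.81 and 5.70 in EBF1ΔC, 5.82, 5.76 and 5.52 in EBF1wt and 6.07, 5.84 and 5.89 in Mock cells. The groups did not overlap with Mock, but the changes of -0.22 ± 0.11 in EBF1ΔC (SE, adjusted p = 0.109, limma) and -0.23 ± 0.11 in EBF1wt cells (adjusted p = 0.0844, limma) missed the threshold. With quantile normalization they were called, at -0.51 in EBF1ΔC and -0.53 in EBF1wt cells, and with median scaling they were 0.33 and 0.47, so the direction depends on the scaling. Its partner Psme2 had 6.37, 6.50 and 6.44 in EBF1ΔC, 6.35, 6.25 and 6.28 in EBF1wt and 5.85, 6.04 and 5.91 in Mock cells, without overlap. It rose by 0.50 in EBF1ΔC and 0.36 in EBF1wt cells on the main scale, and that probe was called under 3 of the 5 scalings in EBF1ΔC and 2 in EBF1wt cells. With quantile normalization its change was 0.155 in EBF1ΔC and 0.051 in EBF1wt cells. A second Psme2 probe rose by 0.66 and 0.67 and was called under all 5 scalings.

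Psme3, which encodes the nuclear PA28 gamma, had 2.06, 2.03 and 1.92 in EBF1ΔC, 2.14, 2.24 and 2.25 in EBF1wt and 1.98, 1.60 and 1.55 in Mock cells. EBF1wt was above all Mock arrays and rose by 0.50, while EBF1ΔC overlapped 1 Mock array and had a change of 0.29 (adjusted p = 0.0572, limma). Without that array, Mock replicate 1, the adjusted p was 0.00402 (limma). Psme4, which encodes the activator PA200, had 3.97, 4.15 and 4.21 in EBF1ΔC, 4.29, 4.33 and 4.37 in EBF1wt and 4.00, 4.08 and 4.01 in Mock cells on its brightest probe. EBF1wt rose by 0.30 there and EBF1ΔC had a change of 0.08 with overlap. The probes of Psme4 disagreed. A second mRNA probe rose by 0.51 in EBF1ΔC and 0.81 in EBF1wt cells, without overlap with Mock and called under all 5 scalings, and the other mRNA probe had -0.24 in EBF1ΔC and -0.23 in EBF1wt cells, neither called. The brightest probe of the inhibitor Psmf1 rose by 0.66 in EBF1ΔC and 0.67 in EBF1wt cells. Of its 3 probes, 2 were called in both comparisons and 1 in neither.

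Psma8, a testis form of an alpha subunit, and Psmb11, the beta subunit known from the thymic cortex, were not well above background on any of the 9 arrays and were not tested. Psmb11 has a pair of probes, and the remaining untested probes were further probes of Psma2, Psma3 and Psmd11. Those of Psma2 and Psma3 were not well above background on any array, and that of Psmd11, which lies on the strand opposite the gene, was on 1 array of each EBF1 group.

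On the main scale the probes called lower were not RefSeq mRNA probes. Among the 61 tested probes designed on a RefSeq mRNA, 51 were called higher in EBF1ΔC and 56 in EBF1wt cells. Of them, 0 were lower in either group, also at an unadjusted p under 0.05. Over the whole array, EBF1ΔC had 34.1% of tested probes higher and 30.6% lower at the adjusted threshold, and EBF1wt had 35.3% and 31.6%. The lower shares at the unadjusted threshold were 32.3% for EBF1ΔC and 33.2% for EBF1wt. Under 1 or more of the other scalings, 5 of these 61 probes were called lower in EBF1ΔC cells (Psmd3, Psmd8, Psmd12, Psme1 and Psmg2) and 2 in EBF1wt cells (Psmd3 and Psme1). Among the 8 tested probes designed on an Ensembl transcript or a cDNA clone, 1 was called higher in both comparisons, and 5 were called lower in EBF1ΔC and 6 in EBF1wt cells. The higher one is a probe of Psmc6. The lower ones belong to Psma7, Psmc2, Psmd4, Psmd7 and Psme4 in both comparisons and to Psma3 in EBF1wt. Each of these 6 genes also had an mRNA probe that was called higher in EBF1wt cells. The array-wide shares were not split by probe design. Whether Ensembl and clone probes of other genes showed the same contrast was therefore not tested.

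Psma3 shows the contrast on probes whose positions are known relative to each other (sequences above). The mRNA probe across the junction had 4.41, 4.27 and 4.08 in EBF1ΔC, 4.47, 4.48 and 4.27 in EBF1wt and 3.76, 3.69 and 3.52 in Mock cells. The probe inside the skipped interval had -1.04, -1.18 and -0.75 in EBF1ΔC, -1.09, -1.07 and -1.15 in EBF1wt and -0.96, -0.51 and -0.21 in Mock cells. The first was above Mock on all 6 arrays of the EBF1 groups, with changes of 0.60 in EBF1ΔC and 0.75 in EBF1wt cells. The second was below Mock on all 3 EBF1wt arrays, with a change of -0.54 ± 0.19 (SE, adjusted p = 0.0301, limma), and overlapped it in EBF1ΔC cells, with -0.43 ± 0.19 (adjusted p = 0.0706, limma).

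In Psmc2 the mRNA probe, which also crosses a junction, rose by 0.62 in both EBF1 groups, and the Ensembl probe fell by 0.71 in EBF1ΔC and 0.91 in EBF1wt cells. For Psma7 the Ensembl probe fell by 0.78 in EBF1ΔC and 0.88 in EBF1wt cells. The Psmd4 Ensembl probe fell by 0.26 in EBF1ΔC and 0.46 in EBF1wt cells, and was called lower under 1 of the 5 scalings in each. The lower probes of Psma7, Psmc2 and Psmd7 were called lower under 4 of the 5 scalings in both groups. The Psmd7 clone probe fell by 0.55 in EBF1ΔC and 0.70 in EBF1wt cells, against rises of 0.65 and 0.84 on its brighter mRNA probe. The Psme4 clone probe was well above background on the 3 Mock arrays and on 0 of the 6 others. It was thus tested only through Mock, the group where it is high, and its lower calls are no independent support. Its level was at least 4.08-fold lower in EBF1ΔC and at least 3.86-fold lower in EBF1wt cells than in Mock under scaling to the 75th percentile. Under median scaling these bounds were 2.8-fold in EBF1ΔC and 2.37-fold in EBF1wt cells. With normexp the fitted change was -0.38 in EBF1ΔC and -0.33 in EBF1wt cells, and in the authors' values it was -0.29 and -0.23. Apart from the Psme4 probe in EBF1ΔC, none of these was called lower under all 5 scalings, and with median scaling the changes of the other 5 probes lay between -0.24 and 0.28. These 6 probes were dim, with mean levels below the 75th percentile in all 3 groups. Among the bright probes of the array 17.3% were called lower in EBF1ΔC and 16.8% in EBF1wt cells, below the shares of all probes. The part of brightness in this contrast was not tested.

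**Figure D3:**
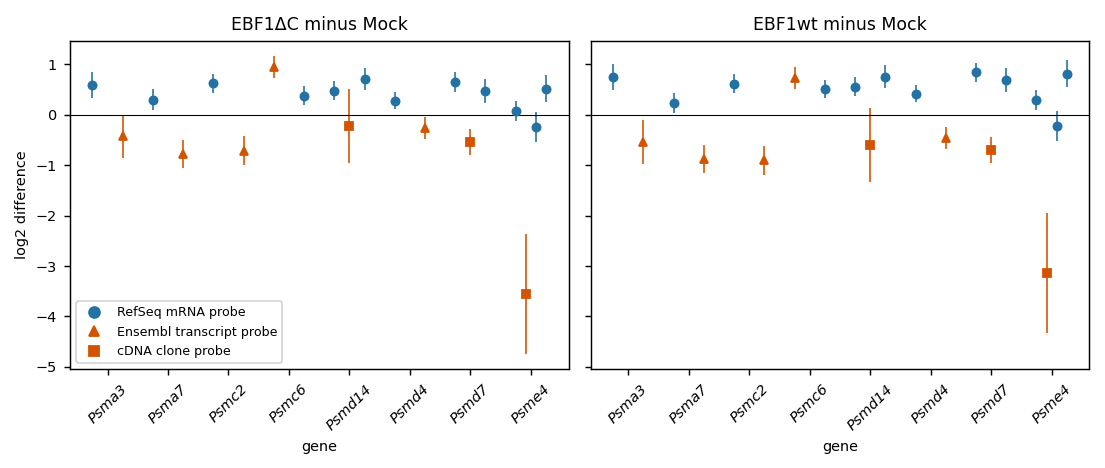
Log2 difference from Mock in EBF1ΔC (left) and EBF1wt cells (right) for the 8 genes with a tested probe not designed on a RefSeq mRNA; bars are 95% intervals of the fit, and values of the Psme4 clone probe are fitted to signals not well above background in the EBF1 groups. RefSeq mRNA probes lie mostly above 0 and Ensembl or clone probes mostly below it, with the Psmc6 Ensembl probe as the exception.

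Setting EBF1ΔC against EBF1wt compares cells given EBF1 without and with its C-terminal domain. The amount of EBF1 made in each group is not given here. The domain therefore cannot be told apart from differences in that amount or between the transduced cultures. For the proteasome genes hardly any difference was found. Of the 69 probes, 0 were called higher, where 2.79% of all probes tested were, and 1 lower, where 2.74% were. At an unadjusted p under 0.05, 2 were higher (10.2% of all probes were) and 6 lower (10.9% of all). The median log2 difference was -0.004 over the 69 probes and 0.004 over all probes. Leaving out the Psme4 clone probe, which was not well above background in either group, single differences ranged between -0.35 and 0.36. Within slide 4, which held 1 array of each group, the median difference was -0.06, and within slide 5 it was 0.04.

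Psmd10, which encodes the chaperone gankyrin, was the probe called lower in EBF1ΔC. It had 0.74, 0.80 and 0.75 in EBF1ΔC, 1.13, 1.04 and 1.16 in EBF1wt and 0.28, 0.18 and 0.15 in Mock cells. The 3 groups did not overlap, with EBF1ΔC between EBF1wt and Mock. The difference from EBF1wt was -0.35 ± 0.08 (SE, adjusted p = 0.0344, limma), and it was -0.29 within slide 4 and -0.42 within slide 5. The adjusted p rose to 0.32 with slide as a fixed block and to 0.163 in the authors' values. It also rose to between 0.0589 and 0.107 without any one of 7 of the 9 arrays (each EBF1ΔC array, EBF1wt replicates 1 and 3, Mock replicates 2 and 3), so the call does not hold over these settings.

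No other chaperone passed the test. Including Psmd10, the median difference of the 9 chaperone probes was -0.15, and the brightest probe of Psmd9 stood at 0.04 and Psmg4 at -0.01. Both Psmg2 probes differed without overlap, by -0.30 ± 0.08 (SE, adjusted p = 0.0743, limma) and -0.29 ± 0.08 (adjusted p = 0.061, limma). The first of them was called under 2 of the other 4 scalings, at -0.309 and -0.305. Psmg1 had -0.20 ± 0.09 (adjusted p = 0.241, limma). These genes were singled out after their values were seen.

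The catalytic subunits were not called between EBF1ΔC and EBF1wt. The 95% interval of the log2 difference was -0.12 to 0.31 for Psmb5, -0.13 to 0.39 for Psmb6 and -0.36 to 0.12 for Psmb7, so that differences of the size found for Psmd10 lie within the intervals of Psmb6 and Psmb7. Psmc3 and Psma6, the 2 genes furthest from Mock, differed by 0.06 ± 0.10 and -0.05 ± 0.10 (SE). Psmc3ip had 0.14 on its brighter and 0.28 on its other probe, neither called.

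**Figure D4:**
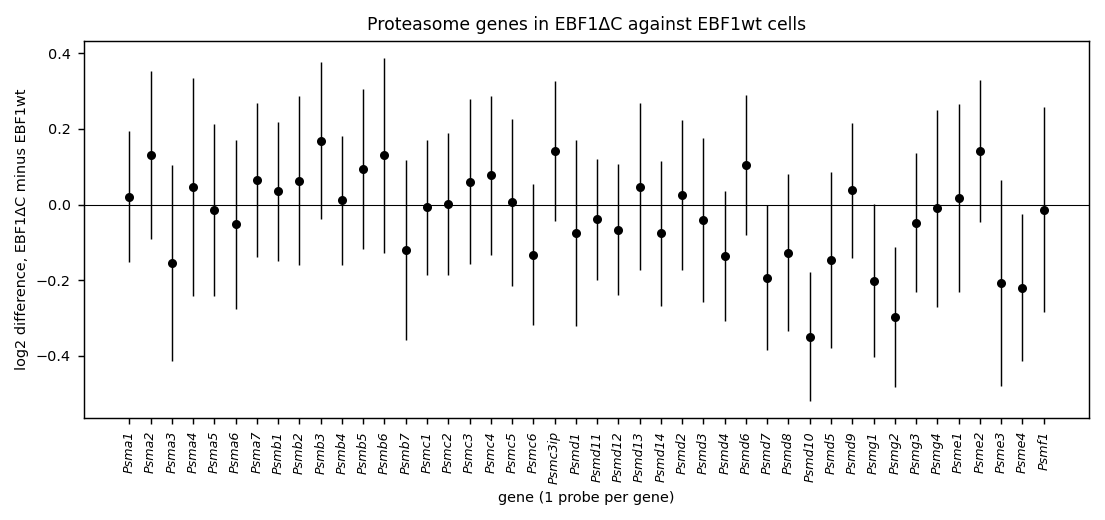
Log2 difference between EBF1ΔC and EBF1wt cells for 44 proteasome genes, 1 probe per gene (points, with 95% intervals of the fit). The differences lie between -0.35 and 0.17, and Psmd10 is the one gene called.

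Other genes of the ubiquitin and proteasome pathway that are not part of the particle as defined here were mostly higher too. Of 35 such genes, 33 were tested. In EBF1ΔC cells 22 were called higher and 3 lower than in Mock, where 34.1% of all probes were called higher and 30.6% lower. In EBF1wt cells 25 were called higher and 2 lower, where 35.3% and 31.6% of all probes were. Between EBF1ΔC and EBF1wt 0 were called in limma, with 2 higher and 5 lower at an unadjusted p under 0.05, where 10.2% of all probes were higher and 10.9% lower. The immunoproteasome subunits Psmb8 and Psmb10 rose by 0.58 and 0.69 in EBF1ΔC and by 0.51 and 0.57 in EBF1wt cells, while Psmb9 had 0.10 and -0.11 and was not called. Ubb and Rps27a, which encode ubiquitin, rose in both groups. Vcp, the ATPase that extracts ubiquitylated proteins for degradation, rose by 0.85 in EBF1ΔC and 0.78 in EBF1wt cells.

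Adrm1, the cap subunit that receives ubiquitin, rose by 1.01 in EBF1ΔC and 0.79 in EBF1wt cells. Usp14, a deubiquitinase bound to the cap, went the other way. It had 0.61, 0.80 and 0.80 in EBF1ΔC, 1.01, 0.99 and 0.96 in EBF1wt and 1.38, 1.64 and 1.77 in Mock cells, and fell by 0.86 in EBF1ΔC and 0.61 in EBF1wt cells. Pomp, which matures the core, was not called, with -0.01 in EBF1ΔC and 0.07 in EBF1wt cells.

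Among the regulators, Nfe2l1 rose by 0.42 in EBF1ΔC and 0.39 in EBF1wt cells, and Ngly1, the glycosidase that Nfe2l1 needs for activation, by 0.82 and 0.88. Ddi2, the protease that cleaves Nfe2l1, had -0.39 in EBF1ΔC, where it was called lower, and -0.22 in EBF1wt cells, where it was not (adjusted p = 0.193, limma). Nfe2l3 fell by 0.79 in EBF1ΔC and 1.16 in EBF1wt cells. These pathway genes were measured on the same arrays and carry the same dependence on scaling.

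Promoter sequence is shown because members moved together. Windows from 250 bases before to 50 after the start site (RefSeq, GRCm38.p6) were at hand for 38 of the 46 genes, 41 windows in all. The genes without a window include the catalytic gene Psmb7 and Psmc3, the gene with the highest change, so their promoters were not searched. The antioxidant response element core TGACNNNGC, which Nfe2l1 is known to bind in subunit promoters, was in the windows of 6 genes (14.6% of the 41 windows, 12.4% of all 32851 windows). The ETS core CCGGAAG was in 39.0% of the proteasome windows, against 8.86% of all windows and 11.6% of those of protein-coding genes. The palindrome of nuclear respiratory factor NRF1, which is not Nfe2l1, was in 17.1% of them, against 6.23% of all and 8.57% of those of protein-coding genes. The SP1 box GGGCGG was in 56.1%, against 35.7% of all and 46.2% of those of protein-coding genes. The CCAAT box (34.1% against 37.4%) and the E-box CACGTG (7.32% against 7.15%) were near the share of all windows, and the palindromic EBF consensus was in 0 of the 41 windows, against 0.904% of all. With a motif so rare, 0 matches in 41 windows cannot show a lack of EBF sites. These 7 motifs were searched on both strands, the palindromes once, and were chosen after the expression values were seen. They are matches of letters, which are no evidence of binding.

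The 250 bases upstream of the start site follow for the 2 catalytic genes that had a window, both with an antioxidant response element core. They also follow for Psma6, which rose furthest among the searched genes with an ETS core. Capitals mark each core that lies wholly within the printed bases. Further ETS cores of Psma6 lie from -2 to 4 and from 17 to 23 relative to the start site, and are not marked.
Psmb5, chr14:54617996-54618245, minus strand: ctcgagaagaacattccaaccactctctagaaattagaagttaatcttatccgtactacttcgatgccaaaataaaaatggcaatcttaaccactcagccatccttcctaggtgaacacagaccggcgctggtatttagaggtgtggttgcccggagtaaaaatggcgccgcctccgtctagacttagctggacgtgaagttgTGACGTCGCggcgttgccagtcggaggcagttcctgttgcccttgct
Psmb6, chr11:70525107-70525356, plus strand: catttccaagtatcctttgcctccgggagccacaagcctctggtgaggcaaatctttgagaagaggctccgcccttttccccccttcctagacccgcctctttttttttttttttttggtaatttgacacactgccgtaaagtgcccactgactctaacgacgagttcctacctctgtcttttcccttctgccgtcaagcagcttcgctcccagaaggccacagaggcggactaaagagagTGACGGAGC
Psma6, chr12:55398575-55398824, plus strand: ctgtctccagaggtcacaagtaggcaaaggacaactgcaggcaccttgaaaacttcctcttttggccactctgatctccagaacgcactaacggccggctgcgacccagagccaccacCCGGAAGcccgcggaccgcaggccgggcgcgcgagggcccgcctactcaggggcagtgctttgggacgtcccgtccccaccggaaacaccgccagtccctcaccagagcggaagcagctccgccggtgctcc

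The core lies 47 bases before the start site in Psmb5 and 9 in Psmb6.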

How the data were processed

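Spot intensity values were deposited as Agilent Feature Extraction output, 1 file per array; per the file headers the processed signal was background-subtracted and detrended and not normalized between arrays. The headers name Feature Extraction 10.5.1.1 and the submitters' processing notes 9.1. The log2 values deposited by the authors in the series matrix, whose normalization is not given in the sources used here, served as an alternative. Array number and signal, not read depth, limit the precision.

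Of 45018 spots per array, 43379 were not controls. Outlier spots (73 to 163 per array) were left out, the processed signal was divided by each array's 75th percentile before taking log2, and spots of a probe were averaged. A probe was tested if some group had it well above background in its 3 arrays (22355 probes). One model with a mean per group (6 residual degrees of freedom) was fitted in limma 3.58.1 (R 4.3.3, statmod 1.5.0, data.table version 1.17.8) and checked on simulated data. Errors are standard errors of the fit. For a group with no array well above background, the fold is a bound set by the lowest signal that was.

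Genes named are, in each comparison, the 4 highest and the 4 lowest of those called without overlap, the catalytic subunits, Psmc3ip, Psma8 and Psmb11, the activators, inhibitor and Psmg chaperones, and genes with probes called in opposite directions. Other genes named are Psmd3, Psmd8 and the pathway genes. A gene is represented by its tested probe with the highest mean. The members, lists and tests were chosen with earlier results of these data known. Replicate numbers did not pair samples (correlations of same-numbered deviations -0.142 to 0.138). Alternatives were 4 other scalings, other filters and thresholds, slide or replicate number as a block, other moderation, a fit of only the compared groups, 1 probe per gene, RefSeq probes alone (added after seeing the data) and leaving out each array. The labels use both transfected and transduction. For EBF1wt replicate 3 tamoxifen is missing in the source name; its title set the group. Values of some single pathway genes are not reported here.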

Additional observations from a re-analysis of the deposited data

Results flagged for a closer look

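Psmd10 was marked because its change from Mock differed between the EBF1 groups by a direct test. The log2 difference between EBF1ΔC and EBF1wt was -0.349 (adjusted p = 0.0344, limma), lower in all 3 EBF1ΔC arrays than in all 3 EBF1wt arrays. Its adjusted p over the alternatives ranged between 0.0187 and 0.32.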

How the results depend on the processing

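The counts and the medians against Mock kept their direction under all alternatives, while several single genes did not. The median between EBF1ΔC and EBF1wt, -0.004 on the main scale, was 0.006 with quantile normalization, 0.01 with normexp and 0.02 in the authors' values. Probes called higher stayed within 1.5 times of 57 in EBF1wt and 52 in EBF1ΔC except with a 2-fold threshold (2 in each). Probes called lower against Mock were 5 in EBF1ΔC and 6 in EBF1wt, and became 1 in each with median scaling or a 2-fold threshold and 0 in each with 1 probe per gene or with RefSeq probes only, which is how those alternatives are built; with normexp or the authors' values they were 9 in EBF1ΔC. The median change was 0.305 in EBF1ΔC and 0.287 in EBF1wt with normexp, 0.303 and 0.279 with quantile normalization, 1.014 and 1.165 with median scaling, and 0.326 and 0.309 in the authors' values. Median scaling moved the EBF1ΔC minus EBF1wt median to -0.163. The 1 probe called lower between EBF1ΔC and EBF1wt became 0 with median scaling, no filter, slide as a fixed block, the replicate block, only the 2 groups, adjusted p under 0.01 or a 2-fold threshold, 2 in the authors' values and 3 with trended and robust moderation.

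Leaving out 1 array gave 46 to 52 higher, 4 to 7 lower and a median of 0.419 to 0.501 in EBF1ΔC, and 51 to 57, 5 to 8 and 0.428 to 0.522 in EBF1wt, the last without Mock replicate 1; between EBF1ΔC and EBF1wt it gave 0 to 1 lower and a median of -0.023 to 0.032. With the replicate block 51 and 54 probes were higher in EBF1ΔC and EBF1wt, and 744 of all probes were called between EBF1ΔC and EBF1wt, against 1237 without it. Among named genes, the block also ended the calls of Psmd11 in EBF1ΔC (adjusted p = 0.056, limma) and of Psmb3, Psma7 and Psmd12 in EBF1wt (0.0687, 0.0658 and 0.0619).

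Besides Psmd10, whose arrays are named above, leaving out 1 array ended these calls (limma adjusted p): in EBF1ΔC, Psma7 without Mock 3 or EBF1ΔC 1 or 2 (up to 0.069), Psmb7 without Mock 2 or 3 or EBF1ΔC 1 or 2 (up to 0.106) and Psmd11 without Mock 2 or 3 or any EBF1ΔC array (up to 0.0894); in EBF1wt, Psmd12 without Mock 3 or EBF1wt 1 or 3 (up to 0.11), Psmb3 without any Mock array, EBF1wt 1 or 3 or EBF1ΔC 1 (up to 0.112), Psmg3 without Mock 1 or 3, EBF1wt 1 or 2 or EBF1ΔC 1 or 2 (up to 0.117) and Psma7 without any array but EBF1ΔC 3 (up to 0.152). Without Mock 1, Psme3 was called in EBF1ΔC (0.00402). The same 7 calls also ended with no filter on dim probes.

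Among named genes with a called value, these changes against Mock turned sign on the probe that represents the gene. The cause was not tested. In EBF1ΔC, Psma1 was -0.01 with normexp and -0.021 in the authors' values, Psmd11 -0.011 with quantile normalization, Psmd12 -0.235 with normexp and -0.251 in the authors' values, Psmd3 -0.354 with quantile normalization, -0.294 with normexp and -0.198 in the authors' values, and Psmg2 -0.257 with normexp and -0.25 in the authors' values. In EBF1wt, normexp gave Psmb3 -0.081, Psma7 -0.049, Psmg3 -0.045, Psma1 -0.011, Psmd12 -0.155, Psmd3 -0.285 and Psme4 -0.021. Quantile normalization gave Psmb3 -0.087, Psma7 -0.008, Psmd3 -0.284 and Psmd12 -0.018. The authors' values gave Psma1 -0.004, Psmg3 -0.021, Psmd12 -0.135 and Psmd3 -0.139. Quantile normalization also gave Psmd12 -0.072 and Psmg2 -0.095 in EBF1ΔC. Median scaling gave Psme1 0.47 in EBF1wt and 0.328 in EBF1ΔC, against negative values under the other scalings. It gave Psmd8 0.536 in EBF1ΔC, against -0.208, -0.352 and -0.338 with quantile normalization, normexp and the authors' values. In the same order, Psmd8 in EBF1wt had 0.823 against -0.118, -0.227 and -0.221. In EBF1ΔC, Psme4 had 0.62 against -0.12, -0.217 and -0.189, and Psmg3 0.719 against -0.003, -0.092 and -0.061. The median-scaled bounds of the Psme4 clone probe were chosen after seeing the data. A sign change between values of which neither passed the test was not counted.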
